A study of Arabidopsis thaliana with 11 samples.

Results

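HCHIB (AT3G12500), the basic chitinase gene of Arabidopsis, and AT3G12502, a non-coding transcript that overlaps it on the opposite strand, were read in every library of a series on the stomatal lineage. They are 2 of the 33602 genes in the deposited table, were picked by their locus codes, and both passed the filter on low values with 29850 genes in all. Interest in them came from their difference between mature guard cells and the whole epidermis, so that difference is described here and not tested.

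The 11 RNA-seq libraries came from protoplasts sorted by fluorescence from the aerial parts of seedlings aged 10 days, all in the Columbia background. ML1Y (ML1p::YFP-RCI2A, 2 libraries) marks the whole epidermis. SSY (SPCHp::SPCH-YFP, 3 libraries) marks early precursors, MG (MUTEp::nucGFP, 2 libraries) late meristemoids with young guard mother cells, and FGF (FAMAp::GFP-FAMA, 2 libraries) the older guard mother cells with newly formed guard cells. E1728G (the enhancer trap line E1728::GFP, 2 libraries) marks mature guard cells. In an enhancer trap the reporter is switched on by regulatory DNA near the place where it inserted, and the sources used here do not say where that is in E1728. Every group is a single transgenic line, SSY and FGF also carry an added fusion with a lineage regulator, and nothing in the labels says that libraries of a group came from separate cultures of plants, so the spread between them may be technical. All libraries went through the same digestion to protoplasts for 2 h.

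Chitinases cut chitin, the polymer of fungal cell walls and insect cuticles, which plants do not make. HCHIB is a class I enzyme of glycoside hydrolase family 19 (GH19), with a hevein-type domain that binds chitin, and it is also known as pathogenesis-related protein PR-3. Its transcript is a textbook marker of the ethylene and jasmonate branch of defence, beside PR4 and the defensin PDF1.2. Non-coding transcripts from the strand opposite a gene are known to act on some partner genes, while others are by-products of transcription. No role of AT3G12502 is stated in the files.

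The RefSeq annotation of TAIR10.1 places HCHIB on the minus strand at chr3:3962136-3963984, with exons of 460 and 913 bases, 1008 coding bases and 335 residues. Its record has no 5′ UTR. AT3G12502, annotated as a lncRNA, is on the plus strand at chr3:3962406-3964222, with exons of 35 and 692 bases that add up to 727, against 1373 exon bases in HCHIB. Those exons begin only at base 3963124, so the gene record reaches further into HCHIB than its transcript does. The large exon of AT3G12502 shares 454 bases with exon 1 of HCHIB, which is 62.4% of the exon bases of AT3G12502, and then runs on for 238 bases past the start of HCHIB. The small exon lies inside the HCHIB intron. The submitters' notes name TAIR10 for their own mapping, and the sources used here do not give the gene model on which they counted AT3G12502.

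**Figure D1:**
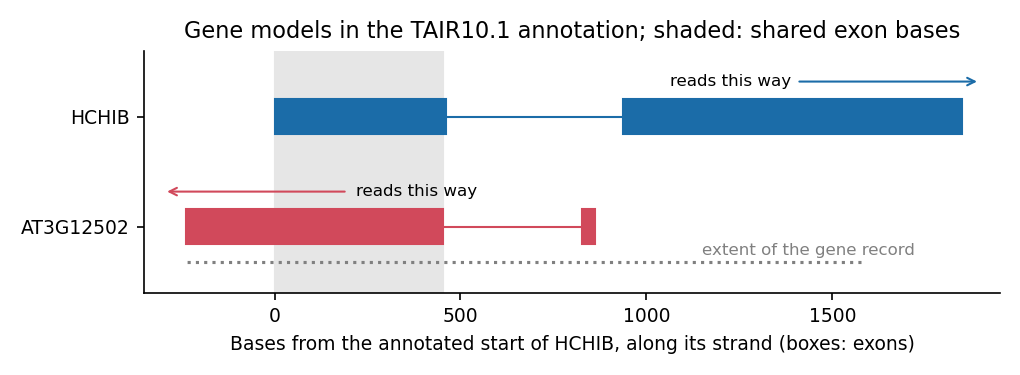
Exons (boxes) and introns (lines) of HCHIB and AT3G12502 in the TAIR10.1 annotation, drawn as distance in bases from the HCHIB start along the HCHIB strand. The dotted line is the extent of the AT3G12502 gene record. The shaded 454 bases are exon in both, and the large exon of AT3G12502 reaches 238 bases upstream of HCHIB.

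The ends of the introns are printed to show that each model can be spliced on its own strand only. Each line has 10 bases on either side of an exon border, read on the strand of the transcript named, with the first or last 2 intron bases in capitals.
HCHIB intron donor, chr3:3963515-3963534, minus strand: gaaactacagGTacccaaaa
HCHIB intron acceptor, chr3:3963039-3963058, minus strand: cgtcgtgcAGgtggatgggc
AT3G12502 intron donor, chr3:3963149-3963168, plus strand: tggaatattcGTaagttcct
AT3G12502 intron acceptor, chr3:3963521-3963540, plus strand: gtacctgtAGtttcatggga
Both introns start with GT and end with AG on their own strand, the usual ends of plant introns, and read CT and AC on the other. A spliced read could thus be given to a strand, but the sources used here do not give the strand setting of the libraries or of the authors' counting. Reads from the 454 shared bases cannot be told apart, and each value below is that of a row of the table and not of a strand.

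The window around the HCHIB start is printed because almost all of it is also exon of AT3G12502. It holds 250 bases before the annotated start, in lower case, and the first 50 bases of the record, in capitals, on the minus strand. As the record has no 5′ UTR, the capitals begin with the start codon ATG and are coding bases. Where transcription of HCHIB starts is not given by this record.
HCHIB start, chr3:3963935-3964234, minus strand: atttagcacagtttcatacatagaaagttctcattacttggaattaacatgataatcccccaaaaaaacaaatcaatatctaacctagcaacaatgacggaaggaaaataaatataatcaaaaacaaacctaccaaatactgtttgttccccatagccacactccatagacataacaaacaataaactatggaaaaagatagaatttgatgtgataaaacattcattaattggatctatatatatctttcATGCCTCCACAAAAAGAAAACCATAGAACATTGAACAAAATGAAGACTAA
Short motifs of defence promoters were searched in it on both strands, beside windows of 300 bases of 27443 protein-coding genes. Each window was set at the start of the gene record. That is the start codon in HCHIB but lies before it in genes annotated with a 5′ UTR, so the windows are not fully alike. The GCC box GCCGCC, bound by ethylene response factors, had 0 matches here and was in 2.57% of windows. The W box core TTGAC, bound by WRKY factors, had 0 matches and was in 50.5%, and the G box CACGTG had 0 and was in 7.68%. The as-1 core TGACG, bound by TGA factors, had 1 match whose first base lies at position -156 from the start, and was in 23.1% of windows. TGACG and TTGAC can share 4 bases. A match is only a run of letters, and its absence concerns this window alone.

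Likeness between libraries was read as Spearman's correlation over the genes tested. Each SSY library reached at most 0.805 to 0.813 with its nearest library, while the nearest library of each of the 8 not from SSY gave 0.891 to 0.946, so SSY stood apart. SSY replicate 1, MG replicate 1, FGF replicate 1 and E1728G replicate 2 were each closest to a library of another group. The table holds normalized values and no read counts, so the depth behind a value is unknown. The linear sum of the values was between 17236592 and 25175463 in a library. The labelled cell types were checked on fixed marker lists. Of 12 guard cell markers, 4 were higher in E1728G than in ML1Y and 0 lower by limma. Of all genes, 0.348% were called as higher and 2.09% as lower. The summed level of the 12 was 20.92 and 20.53 on the log2 scale in E1728G, against 17.05 and 16.82 in ML1Y. TGG1, a myrosinase, made up most of it, at 20.85 and 20.44 in E1728G and 16.98 and 16.71 in ML1Y. The sum was 20.08 and 20.79 in FGF, 18.72, 20.72 and 19.72 in SSY, and 17.34 and 17.04 in MG. In FGF minus ML1Y 5 of the 12 were called, all higher, where 2.11% of all genes were called. In SSY minus ML1Y 2 of the 12 were called, both higher, where 0.801% of all genes were called as higher. This list thus does not set E1728G apart from FGF, and its sum does not set E1728G apart from SSY replicate 2. Of 15 mesophyll markers, all 15 were lower in E1728G, with a summed level of 14.78 and 14.40 against 18.83 and 19.14 in ML1Y. Less RNA per cell and fewer cells of a kind cannot be told apart in sorted bulk samples. Of 10 vasculature markers 1 was lower and 0 higher in E1728G (1 at an unadjusted p under 0.05), of 8 trichome markers 0 passed (0 unadjusted) and of 8 epidermis markers 0 passed (1 unadjusted). The summed level, on the log2 scale, was 8.31 and 8.44 in E1728G, against 9.22 and 9.23 in ML1Y, for vasculature. It was 8.34 and 8.64 in E1728G, against 8.67 and 8.66 in ML1Y, for trichomes. For the epidermis it was 13.29 and 13.47 in E1728G, against 12.11 and 12.88 in ML1Y. The part of other cell types in the values of HCHIB and AT3G12502 was not tested.

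HCHIB was highest in both libraries of mature guard cells. Its level, the deposited log2 value, was 5.87 and 6.0 in ML1Y, 6.12, 5.59 and 5.49 in SSY, 5.76 and 7.95 in MG, 6.43 and 6.11 in FGF, and 13.47 and 10.69 in E1728G. The lowest E1728G library lay 2.73 above the highest of the 9 others, which was MG replicate 2. Group means were 5.94 ± 0.09 (SD, n = 2) in ML1Y, 5.73 ± 0.34 (n = 3) in SSY, 6.86 ± 1.55 (n = 2) in MG, 6.27 ± 0.23 (n = 2) in FGF and 12.08 ± 1.97 (n = 2) in E1728G. From high to low the order was E1728G, MG, FGF, ML1Y and SSY. MG overlapped FGF, ML1Y and SSY, and ML1Y overlapped SSY, while both FGF libraries lay above both ML1Y libraries and FGF overlapped SSY.

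AT3G12502 was also highest in both E1728G libraries, where it matched HCHIB, and it lay below HCHIB in the 9 others. It stood at 5.02 and 5.31 in ML1Y, 5.18, 4.30 and 4.63 in SSY, 4.87 and 5.46 in MG, 5.7 and 5.15 in FGF, and 13.53 and 10.72 in E1728G. The lowest E1728G library lay 5.02 above the highest of the others, FGF replicate 1. Group means were 5.17 ± 0.21 (SD, n = 2) in ML1Y, 4.70 ± 0.45 (n = 3) in SSY, 5.16 ± 0.42 (n = 2) in MG, 5.43 ± 0.39 (n = 2) in FGF and 12.12 ± 1.99 (n = 2) in E1728G. The order was E1728G, FGF, ML1Y, MG and SSY, and the 4 lower groups overlapped one another.

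**Figure D2:**
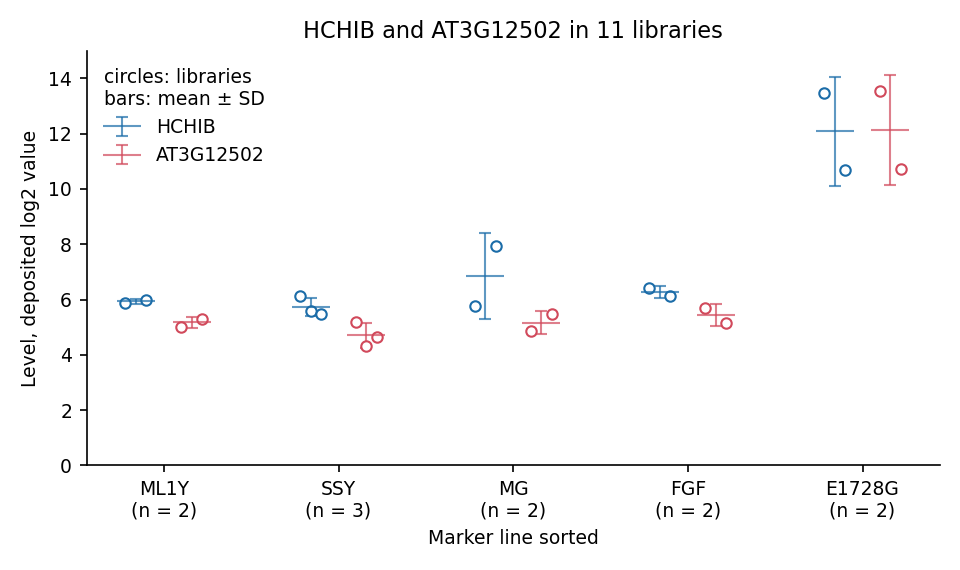
Deposited log2 values of HCHIB (blue) and AT3G12502 (red) in the 11 libraries (circles) with group mean ± SD (bars), by marker line. Both rows lie above 10 in the 2 E1728G libraries and below 8 in the 9 others, and in each row E1728G replicate 1 is the higher of the pair.

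Set against the other genes on a scale per kb of exon, HCHIB lay in the top of the range in E1728G. Per kb of RefSeq exon it lay at percentile 99.5 and 97.8 of 29541 genes in E1728G replicates 1 and 2, against percentiles 58.7 to 73.5 in the other libraries apart from MG replicate 2 (86). AT3G12502 lay at percentile 99.8 and 98.8 in E1728G, against 50.7 to 73.2 in all other libraries.

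The fitted log2 difference of E1728G minus ML1Y was 6.14 ± 0.88 (standard error) for HCHIB, which is 70.6-fold, and 6.96 ± 0.76 for AT3G12502, which is 124-fold. In that comparison, 2.44% of the genes tested were called at a limma adjusted p under 0.05. Ordered by this difference, from the most positive, AT3G12502 was at rank 1 and HCHIB at rank 2 of 29850. These values are the ones the pair was chosen on. Against the other stages, which share the same E1728G libraries, the log2 difference of E1728G was 5.81 ± 0.88 over FGF, 5.22 ± 0.88 over MG and 6.34 ± 0.81 over SSY for HCHIB, and 6.70 ± 0.76, 6.96 ± 0.76 and 7.42 ± 0.69 in the same order for AT3G12502. The standard errors pool the spread within all 5 groups. In both rows that spread was widest in E1728G, with an SD of 1.97 for HCHIB and 1.99 for AT3G12502 (n = 2). The standard errors may thus understate the uncertainty of differences that involve E1728G. None of these differences was tested, since they rest on the E1728G libraries the pair was chosen on.

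The size of the difference depended on the library. E1728G replicate 1 exceeded replicate 2 by 2.78 for HCHIB, a ratio of 6.89, and by 2.81 for AT3G12502, a ratio of 7.01. Over all genes tested this gap had a median of 0.03 and lay between -1.51 and 1.56 from percentile 5 to percentile 95, and 279 genes (0.935%) had a gap at least as large as that of HCHIB. TGG1 and TGG2, the myrosinases abundant in guard cells, had gaps of 0.41 and 0.05. Other guard cell markers were less even, in both directions. OZS1 stood at 11.80 and 10.02 in E1728G replicates 1 and 2, HT1 at 9.11 and 8.00, and AT1G22690 at 6.84 and 8.69. Without E1728G replicate 1 the difference over ML1Y was 4.75 for HCHIB and 5.55 for AT3G12502, and without replicate 2 it was 7.53 and 8.36. What set replicate 1 apart was not tested.

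Among SSY, MG and FGF, none of whose libraries entered the choice of the pair, neither row passed the test. HCHIB differed by 1.12 ± 0.81 in MG minus SSY (limma adjusted p = 0.49), by 0.54 ± 0.81 in FGF minus SSY (adjusted p = 0.763) and by -0.59 ± 0.88 in FGF minus MG (adjusted p = 1). AT3G12502 differed by 0.46 ± 0.69 in MG minus SSY (adjusted p = 0.757), by 0.72 ± 0.69 in FGF minus SSY (adjusted p = 0.62) and by 0.26 ± 0.76 in FGF minus MG (adjusted p = 1). Of all genes tested, 2.12% were called in MG minus SSY, 1.91% in FGF minus SSY and 0.137% in FGF minus MG. The standard errors come from 1 fit of all 11 libraries, so the wide spread between the E1728G libraries enters them. That spread was an SD of 1.97 for HCHIB and 1.99 for AT3G12502. In fits of only the groups compared neither row passed either, with limma adjusted p from 0.542 to 0.958. The MG value of HCHIB rested on replicate 2: without it MG minus SSY was 0.03 and FGF minus MG turned to 0.51. Against ML1Y, whose libraries entered the choice, the fitted difference of HCHIB was -0.20 ± 0.81 in SSY, 0.92 ± 0.88 in MG and 0.33 ± 0.88 in FGF, and that of AT3G12502 was -0.46 ± 0.69, 0.00 ± 0.76 and 0.26 ± 0.76 in the same order.

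The balance between the rows was not the same everywhere. AT3G12502 minus HCHIB, a log2 difference of the deposited values, was 0.06 and 0.04 in the E1728G libraries. In the 9 other libraries it lay between -2.50 and -0.69, with a median of -0.89. The lowest value was that of MG replicate 2, where HCHIB was high and AT3G12502 was not, and the next lowest was -1.29 in SSY replicate 2. The mean was 0.05 in E1728G (n = 2) and -1.08 ± 0.56 (SD, n = 9) in the others, a shift of 1.13. Per kb of RefSeq exon every one of these values is raised by 0.92, the log2 ratio of the exon lengths, so that AT3G12502 exceeded HCHIB by 0.98 and 0.95 per kb in E1728G and had a median difference of 0.03 in the others. The lengths the authors' counting used are not known, and the shift between libraries does not depend on them.

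**Figure D3:**
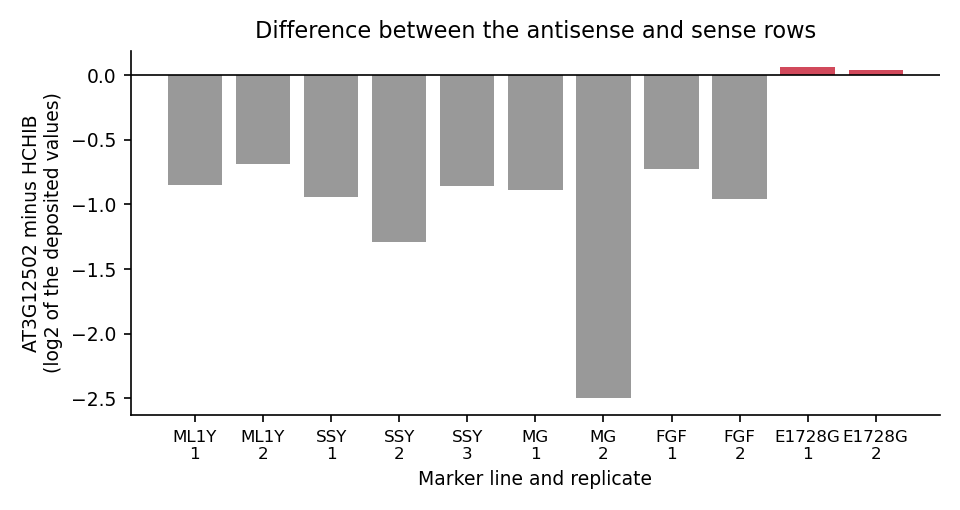
AT3G12502 minus HCHIB as a log2 difference of the deposited values, for each library in stage order. The 2 E1728G libraries (red) are slightly above 0, and the 9 others (grey) lie between -2.50 and -0.69, lowest in MG replicate 2.

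Across the 11 libraries HCHIB and AT3G12502 had a Pearson correlation of 0.98, which their high values in E1728G carried, and of 0.66 across the 9 libraries without E1728G. The points share their libraries and, through the bases that both models cover, may share reads. Other pairs of genes that overlap on opposite strands were read the same way. Of 2941 pairs with at least 1 shared exon base and both members tested, the median correlation was 0.23 (quartiles -0.08 and 0.56). In 457 pairs the shared bases made up at least 50% of the shorter one, as in HCHIB and AT3G12502. Their median was 0.62 (quartiles 0.12 and 0.94), and 68 of them exceeded the value of this pair. Interest in this pair came from its E1728G values, which carry the 0.98, so no conclusion is drawn from its place among the others. The other pairs were not read without E1728G. The standard deviation of the difference over libraries was 0.68 in HCHIB and AT3G12502 and had a median of 0.75 in those 457 pairs.

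The genes next to the pair were examined as the closest context on the chromosome. NF-YC11 (AT3G12480, plus strand, chr3:3957763-3960472), a subunit of a histone-fold transcription factor, lies 1663 bases from HCHIB and was also high in E1728G replicate 1. Its level was 13.80 and 10.43 in E1728G, against 9.32 and 8.78 in ML1Y and between 8.99 and 10.36 in the 7 libraries of the other stages. Both E1728G libraries were thus above all 9 others. The difference of E1728G minus ML1Y was 3.06 ± 0.97 and did not pass (limma adjusted p = 0.135, unadjusted p = 0.00671). The gap between the E1728G replicates was 3.37, a ratio of 10.3, larger than those of HCHIB and AT3G12502 and exceeded or matched by 0.389% of genes. Without E1728G replicate 2 the adjusted p was 0.0272, with the lone library assumed to vary like the other groups, and without replicate 1 it was 0.855.

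Between NF-YC11 and HCHIB lies CYSB (AT3G12490, minus strand, chr3:3960401-3961920), a cystatin that inhibits cysteine proteases, only 215 bases from the end of HCHIB. CYSB stood at 9.41 and 8.32 in E1728G, against 7.49 and 8.45 in ML1Y, so the groups overlapped (difference 0.89 ± 0.91, adjusted p = 0.833). It overlaps the end of NF-YC11 by 72 bases on the opposite strand. Upstream of HCHIB, AT3G12510 (chr3:3967058-3967822) stood at 7.31 and 8.38 in E1728G, against 7.41 and 7.55 in ML1Y (0.36 ± 0.74, adjusted p = 0.951). SULTR4;2 (AT3G12520, chr3:3967816-3972135), a vacuolar sulfate exporter, stood at 7.57 and 7.21, against 6.37 and 6.04 in ML1Y, which did not overlap but did not pass (1.19 ± 0.60, adjusted p = 0.451).

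Over 10 genes of the table on each side, 19 of 20 were tested and 0 were called in E1728G minus ML1Y, where 2.44% of all genes were. At an unadjusted p under 0.05 there were 2, NF-YC11 and FYD (AT3G12570, 1.83 ± 0.70). The share of all genes at that unadjusted threshold was not computed. FYD was named after its values were seen. The differences of the 19 genes ran from -0.81 to 3.06 with a median of 0.63, beside a median of 0.03 over all genes.

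**Figure D4:**
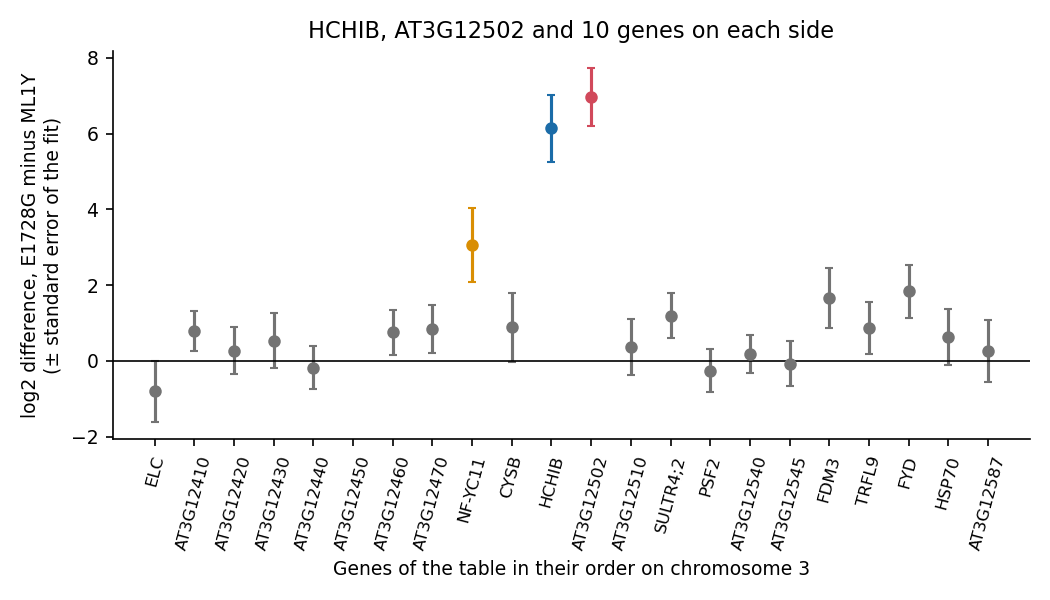
Fitted log2 difference of E1728G minus ML1Y (points, ± standard error) for HCHIB, AT3G12502 and 10 genes on each side in chromosomal order. HCHIB (6.14) and AT3G12502 (6.96) stand above their neighbours, followed by NF-YC11 (3.06, orange), which did not pass the test; AT3G12450 has no point because it failed the filter on low values.

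Of the 23 other chitinase genes of Arabidopsis, 13 of GH19 and 10 of family 18 (GH18), all passed the filter. In E1728G minus ML1Y 1 was higher and 1 lower, where 0.348% of all genes were called as higher and 2.09% as lower. Of the 23, 8 had an unadjusted limma p under 0.05, with 6 of them in GH19 and 2 in GH18. The share of all genes at that unadjusted threshold was not computed. The median difference of the 23 was -0.18, beside 0.03 over all genes. In E1728G minus FGF 0 were called by limma (1 at an unadjusted p under 0.05), where 0.0101% of all genes were. CHIA (AT5G24090), the acidic class III enzyme of GH18, was the one that rose. Its level was 9.69 and 7.70 in E1728G, against 5.43 and 4.62 in ML1Y (3.67 ± 0.63, limma adjusted p = 0.00735). In FGF it stood at 7.29 and 7.35, above all libraries of ML1Y, SSY and MG, where FGF minus ML1Y was 2.29 ± 0.63 and did not pass (adjusted p = 0.0826). Its E1728G replicate 1 was higher than replicate 2 by 2.00, and its call ended without E1728G replicate 1 (2.67, adjusted p = 0.0906) or ML1Y replicate 2 (3.27, adjusted p = 0.129).

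AT2G43620, a member of a run of GH19 genes on chromosome 2, was lower than in ML1Y at all 4 stages, as were all 15 mesophyll markers. It stood at 4.56, 3.89 and 3.46 in SSY, 4.01 and 4.53 in MG, 4.84 and 3.45 in FGF and 3.99 and 4.59 in E1728G, against 7.83 and 6.55 in ML1Y. Of the 23, 2 were called in SSY minus ML1Y, 1 in MG minus ML1Y and 1 in FGF minus ML1Y, all lower and AT2G43620 among them each time, where 5.55%, 1.61% and 2.11% of all genes were called and 4.75%, 1.43% and 1.89% as lower. The median difference of the mesophyll markers from ML1Y was -5.50 in SSY, -5.56 in MG, -5.45 in FGF and -4.93 in E1728G. Their part in the values of AT2G43620 was not tested. The differences of AT2G43620 from ML1Y were -3.22 ± 0.54 (adjusted p = 0.00317), -2.92 ± 0.59 (0.0219 adjusted), -3.05 ± 0.59 (0.014 adjusted) and -2.90 ± 0.59 (0.0173 adjusted) in that order of stages. They share the ML1Y libraries, and each call ended without ML1Y replicate 1, with differences from -2.58 to -2.26. Those of MG and E1728G also ended without ML1Y replicate 2 (-3.56 and -3.54), and further without either MG replicate (-2.65 and -3.18), without FGF replicate 2 (-2.35) and without E1728G replicate 1 (-2.60), each for its own stage.

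Elsewhere in GH19, EP3 (AT3G54420), a class IV enzyme first described from carrot embryo cultures, was lowest in SSY. Its level was 4.86, 5.04 and 4.29 in SSY, against 8.05 and 6.86 in ML1Y (-2.72 ± 0.64, limma adjusted p = 0.0218). MG stood at 8.17 and 6.92, which was higher than SSY (2.81 ± 0.64, adjusted p = 0.037). In MG minus SSY, EP3 and AT2G43590 were the 2 chitinases called, both higher in MG, where 1.75% of all genes were. In E1728G it stood at 8.97 and 9.15, with no call over ML1Y (1.61 ± 0.70, adjusted p = 0.335). AT2G43590 stood at 8.46 and 10.04 in MG, against 6.41, 4.90 and 5.86 in SSY (3.52 ± 0.73, adjusted p = 0.0263). The call of EP3 in SSY minus ML1Y ended without either ML1Y replicate or without SSY replicate 3. In MG minus SSY the call of EP3 held in 3 of 11 fits that left out a library and that of AT2G43590 in 6, with the lowest differences at 2.19 and 2.73.

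The relatives of HCHIB that are closest in sequence did not pass in E1728G minus ML1Y. Over aligned residues, the class II enzymes AT1G02360 and AT4G01700 were 56% and 55.9% identical to HCHIB, and the 11 others of GH19 29.9% to 43.9%. AT4G01700 was highest in E1728G at 11.35 and 9.09, against 7.93 and 7.97 in ML1Y (2.27 ± 0.82, adjusted p = 0.206), while AT1G02360 stood at 5.94 and 4.46, against 6.42 and 5.31 (-0.67 ± 0.65, adjusted p = 0.818). POM1, a chitinase-like protein of cell wall formation and the GH19 member with the highest mean level over all libraries, did not pass in any comparison. The longest stretch elsewhere in the genome that resembled the HCHIB exons had 158 bases at 73.4% identity, in AT4G01700, so no near-identical copy of HCHIB was found.

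**Figure D5:**
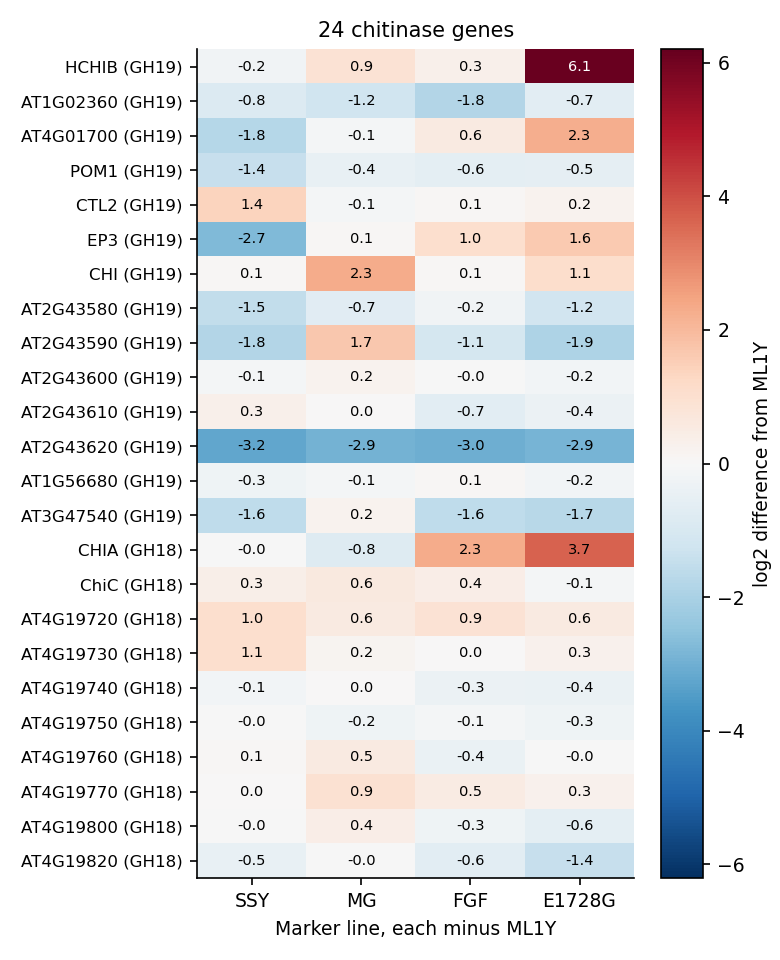
Log2 difference from ML1Y in SSY, MG, FGF and E1728G for HCHIB and the 23 other chitinase genes, with the value written in each cell. HCHIB in E1728G (6.1) and CHIA in FGF (2.3) and E1728G (3.7) have the largest positive differences in FGF and E1728G, that of CHIA in FGF not past the test, and AT2G43620 is about 3 lower in all 4.

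Defence genes that are usually read with HCHIB were counted in the same comparison. Of 46 genes in 4 lists (jasmonate and ethylene defence, salicylate defence, ethylene perception and signalling, chitin perception) 43 were tested, and 0 passed in E1728G minus ML1Y by limma, with 6 at an unadjusted p under 0.05. The count of 0 is close to the share of 2.44% called over all genes. The share of all genes at an unadjusted p under 0.05 was not computed, so the 6 cannot be set against it. PR4 (AT3G04720), a hevein-like protein, stood at 7.16 and 6.11 in E1728G, against 4.72 and 3.72 in ML1Y (2.42 ± 0.62, adjusted p = 0.057), and between 3.01 and 4.98 in the other stages. Both E1728G libraries were above the 9 others. Over the alternative fits the adjusted p of PR4 ran from 0.0283 to 0.491. It passed with the replicate block (limma adjusted p = 0.04), without SSY replicate 3 (0.0283 adjusted) and without the SSY group (0.0326 adjusted), and was furthest from passing without E1728G replicate 1 (0.457 adjusted) or ML1Y replicate 2 (0.491 adjusted). PAD4 (AT3G52430), of the salicylate list, went the other way, at 4.85 and 5.03 in E1728G against 6.95 in both ML1Y libraries (-2.01 ± 0.53, limma adjusted p = 0.0624). PAD4 passed with only the groups compared (0.0356 adjusted), without SSY replicate 1 (0.0221 adjusted) and without the SSY group (0.0198 adjusted). The 3 genes that failed the filter on low values were the defensin genes PDF1.2 and PDF1.2b, with mean levels of 1.98 and 1.96 over all libraries, and PRB1 (2.92), a basic relative of PR1.

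By list, the median difference of E1728G minus ML1Y was -0.02 over 11 jasmonate and ethylene defence genes, -0.33 over 9 salicylate defence genes, 0.55 over 11 ethylene perception and signalling genes and 0.05 over 12 chitin perception genes, beside 0.03 over all genes. The most abundant members were ERF2 (0.46 ± 1.17), an ethylene response factor; EDS1 (-1.24 ± 0.82), a regulator of salicylate defence; EIN3 (0.40 ± 0.91), the main transcription factor of ethylene signalling; and WRKY33 (0.52 ± 0.74), a factor induced by chitin. None of these 4 passed in E1728G minus ML1Y. In SSY minus ML1Y, 3 of the 43 passed, beside 0.801% of all genes called as higher and 4.75% as lower: PR5 (2.07 ± 0.53) and the kinase gene FRK1 (2.86 ± 0.72) were higher, and the receptor-like kinase gene LYK2 (-3.36 ± 0.75) was lower. In MG minus SSY 2 were higher, beside 1.75% of all genes called as higher, the ethylene receptor gene ERS1 (2.92 ± 0.61) and LYK4 (3.90 ± 0.75), a chitin co-receptor. All 5 calls ended when either ML1Y replicate was left out. The differences of ERS1 and LYK4, to which ML1Y does not contribute, were then still 2.92 and 3.90, with adjusted p from 0.0515 to 0.0618, while PR5 ran to 1.51 without ML1Y replicate 2. Calls also ended without SSY replicate 1 for PR5 (2.17), without SSY replicate 2 for FRK1 (2.80), LYK2 (-2.98), ERS1 (2.93) and LYK4 (3.54), and without SSY replicate 3 for PR5 (1.67), FRK1 (2.13), LYK2 (-3.06) and ERS1 (2.96). Without MG replicate 2 those of ERS1 (2.39) and LYK4 (2.89) ended.

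Genes whose levels over the 11 libraries were most like those of HCHIB were ranked by Pearson correlation, which the E1728G libraries dominate. AT3G12502 was at rank 1 of all genes. The 5 closest with a symbol were AGP17 (0.92), an arabinogalactan protein, GRP9 (0.90), a glycine-rich protein, SDG38 (0.90), a SET domain protein, MTK (0.90), a kinase that recycles methylthioribose, and ERF12 (0.89), an ethylene response factor. In E1728G, replicate 1 was above replicate 2 in AGP17 (7.39 and 5.29), SDG38 (8.07 and 5.44), MTK (8.57 and 7.40) and ERF12 (7.15 and 4.62), and below it in GRP9 (6.55 and 7.23). No test is given for these genes, since their likeness to HCHIB rests on the same E1728G libraries.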

How the data were processed

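The authors deposited 1 table of normalized log2 expression values with a column for each of the 11 libraries. The labels call the profiles microarray-based in one field and RNA sequencing in the others, which was followed. Per the submitters' processing notes Bowtie2 and DESeq2 were used with the build TAIR10. The sources used here do not give versions, counter, strand setting or transformation, and the base of 2 was inferred from the values and the tool. Per the labels' protocols about 10 ng of RNA went over oligo-dT beads before SPIA amplification, and the bead step means that transcripts without a poly(A) tail may be missed. If that transformation shrank low values, the differences of low genes are understated.

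Genes with a linear value (2 to the power of the deposited value) of at least 10 in at least 2 libraries entered limma-trend (version 3.58.1 in R 4.3.3), all libraries in 1 fit, two-sided, Benjamini-Hochberg adjusted over the 29850 genes at 0.05 within each comparison. The 2 genes without values were left out. Counts at an unadjusted p under 0.05 are given without the share of all genes at that threshold, which was not computed. The fit was also run on simulated data with independent normal noise and the same spread in every group. That setting differs from these data, where the E1728G replicates were uneven for the pair, so no conclusion is drawn from it. The 2 genes of interest, the lists and the tests were chosen with earlier results of these data known. Named are both genes, chitinases that passed in any comparison, the 2 genes on each side, the members of other lists that passed in E1728G minus ML1Y and the most abundant one, and the 5 most alike genes. Further genes, among them PR4, PAD4, FYD, OZS1, HT1, AT1G22690 and those that passed in SSY and MG, were named after their values were seen. Gene models, names and sequences are from RefSeq TAIR10.1, whose name differs from the authors' build. Identities were computed from translated coding models with Biopython 1.88.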

Additional observations from a re-analysis of the deposited data

How the results depend on the processing

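The difference of E1728G minus ML1Y stayed positive for HCHIB and AT3G12502 in every alternative fit. Leaving out single libraries gave 4.75 to 7.53 for HCHIB and 5.55 to 8.36 for AT3G12502. Their comparisons among SSY, MG and FGF did not pass in any alternative run. FGF minus MG changed direction when a library was left out, running from -1.68 to 0.51 for HCHIB and from -0.03 to 0.56 for AT3G12502. Counts of called genes were small and moved. With quantile normalization other chitinases numbered 0 in MG minus ML1Y (1 in the fit reported) and 1 in MG minus SSY (2), and the defence and chitin lists 0 in MG minus SSY (2). With only the groups compared, chitinases numbered 2 in FGF minus ML1Y (1), 0 in MG minus ML1Y and 0 in MG minus SSY, and list members 2 in E1728G minus ML1Y (0), 1 in FGF minus ML1Y (0), 0 in SSY minus ML1Y (3) and 0 in MG minus SSY. In the fit without the SSY group, chosen after seeing the data, list members numbered 2, 1 and 2 in E1728G, FGF and MG minus ML1Y, against 0 in each. When single libraries were left out, chitinases ran from 0 to 2 in E1728G, FGF and SSY minus ML1Y and MG minus SSY, and from 0 to 1 in MG minus ML1Y and FGF minus MG. List members then ran from 0 to 1 in E1728G and FGF minus ML1Y, 0 to 2 in MG minus ML1Y, 0 to 5 in SSY minus ML1Y and 0 to 3 in MG minus SSY. Over all 29850 genes, the calls in E1728G minus ML1Y also moved. They numbered 728 in the fit reported, 1208 with only the groups compared and 1119 without the SSY group. The list counts of 2 in the last 2 of these fits thus came with more calls over all genes. For the other comparisons the totals of the alternative fits are not given, so their counts cannot be set against all genes. The cause of these moves was not tested.

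Same-numbered libraries showed no clear shared deviation from their group means over all genes, with correlations from -0.08 to 0.03. In groups of 2 the deviations of the replicates mirror each other, so both numbers give the same correlation. Nothing in the labels says whether same-numbered libraries were handled together, and these correlations cannot decide it. With the replicate block, list members numbered 1 in E1728G minus ML1Y, 1 in SSY minus ML1Y and 0 in MG minus SSY, and chitinases 1 in SSY minus ML1Y (2) and 0 in MG minus SSY. Read depth is unknown, so the counting error behind low values could not be given.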
